A study of Mus musculus with 2 samples.

Results

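Semaphorins, plexins, neuropilins, ephrins, Eph receptors, Slits, Robos, netrins and netrin receptors are the classical guidance ligands and receptors, and their transcripts were followed here in differentiated C2C12 cells with and without a hairpin against Lrrfip1. Members were all probe sets whose single gene symbol in the platform annotation names 1 of these families. This gave 157 of 45101 probe sets, which read 70 of 18193 genes. Each probe set pools short array probes that match 1 stretch of a transcript. C2C12 is a mouse myoblast cell line that fuses into multinucleated myotubes once serum is lowered. The first group, shLrrfip1a, carried a hairpin against Lrrfip1, and the second carried a control hairpin that the sample labels spell shLCUI. Both were the same line, differentiated for 5 days in 2% horse serum after growth in 10% fetal bovine serum, and each was read on 1 Affymetrix array. How the hairpin was delivered, to a clone or to a pool of cells, is not given in the sources used here. With 1 array per group no difference has a replicate check, so none has a p-value or an SD over replicates.

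The deposited values are linear intensities with an array median of 53.5 (shLrrfip1a) and 51.4 (control). Lrrfip1 itself read lower in shLrrfip1a on all 3 of its probe sets, at 375 against 531, 292 against 469 and 108 against 160.0. Differences are given on the log2 scale of intensity + 16, shLrrfip1a minus control, a scale that understates the change of dim genes. On this scale Lrrfip1 differed by -0.48 on the brightest of its probe sets, which is under 1.5-fold, and by -0.66 and -0.51 on the others. The brightest probe set, by its mean log2 value on the arrays, stands for its gene, and the gene was kept if this mean exceeded that of the median probe set, at about 52.5 on the intensity scale. This left 11439 genes, among them 51 of the 70 guidance genes. Of 12 myotube markers 11 were above this filter, none differed 1.5-fold, and their summed intensity was 20116 in shLrrfip1a and 21230 in the control. Of 6 endothelial markers 1 was above the filter, of 6 neuronal ones 3, of 4 measured Schwann and glial ones 1, and of 5 macrophage ones 2.

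Guidance ligands were named for steering growing axons, and most act by binding a receptor on a neighbouring or approaching cell and changing its actin cytoskeleton and adhesion. Semaphorins signal through plexins, which switch off small GTPases of the Ras family, and the secreted class 3 semaphorins mostly need a neuropilin as co-receptor. Ephrins stay bound to the cell surface and activate Eph receptor tyrosine kinases on the cell they touch, while Slits bind Robos, and netrins bind Dcc, neogenin and the Unc5 receptors. In muscle, these families have been studied for motor axon targeting, satellite cell migration and myoblast fusion.

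Of the 51 guidance genes above the filter, 5 differed by at least 1.5-fold, a share of 9.80% against a background of 4.81% of all 11439 genes. All 5 encode ligands, of which 29 were above the filter (17.2%, background 4.81%). Sema3c, Ntn4 and Ntn1 were higher in shLrrfip1a (3 genes, background 2.34%), and Sema3d and Sema7a were lower (2 genes, background 2.47%). Sema3d was the single member past 2-fold (1.96%, background 1.36% in either direction and 0.691% for lower), and no member was 2-fold higher (background 0.664%). A share of 1 gene is near the background. Of 22 receptors, 0 reached 1.5-fold on the scale of intensity + 16 (background 4.81%). Robo3, at 1.56-fold in the unadjusted intensities, did so with a pseudocount of 1 (0.63) or spike-in scaling (0.67). Sema7a passed the level filter through the control array, the one where it is high, and its shLrrfip1a value of 52.0 lay just under the filter. Passing thus required a lower value in shLrrfip1a, but not one 1.5-fold lower. Epha3 (-0.16) and Efna4 (-0.12) passed in the same way. The counts are given as a description. At a background of 4.81% a list of 22 genes can easily hold 0, and the contrast between ligands and receptors was not tested.

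The promoters of the genes past 1.5-fold are shown so that the sequence around their annotated starts can be read beside their values. The windows run from 250 bases before to 50 bases after the RefSeq start on GRCm38.p6, and Ntn1 had no entry. All 4 lie on the plus strand, Sema3d at chr5:12382916-12383215, Sema3c at chr5:17574566-17574865, Ntn4 at chr10:93640799-93641098 and Sema7a at chr9:57939862-57940161. Capitals mark matches, on either strand, to a GC box (GGGCGG) or an E-box bound by myogenic factors (CAGCTG).
Sema3d: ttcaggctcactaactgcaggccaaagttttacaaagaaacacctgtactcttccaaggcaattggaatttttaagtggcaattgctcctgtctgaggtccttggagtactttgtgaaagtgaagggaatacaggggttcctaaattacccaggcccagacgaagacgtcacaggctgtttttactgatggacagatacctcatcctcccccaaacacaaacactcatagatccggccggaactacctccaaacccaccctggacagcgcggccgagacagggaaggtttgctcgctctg
Sema3c: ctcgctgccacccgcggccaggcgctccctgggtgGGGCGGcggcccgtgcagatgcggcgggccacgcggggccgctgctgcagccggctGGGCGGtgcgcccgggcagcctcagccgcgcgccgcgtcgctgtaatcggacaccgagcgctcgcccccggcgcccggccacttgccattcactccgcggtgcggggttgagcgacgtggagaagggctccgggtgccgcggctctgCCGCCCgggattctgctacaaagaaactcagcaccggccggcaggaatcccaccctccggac
Ntn4: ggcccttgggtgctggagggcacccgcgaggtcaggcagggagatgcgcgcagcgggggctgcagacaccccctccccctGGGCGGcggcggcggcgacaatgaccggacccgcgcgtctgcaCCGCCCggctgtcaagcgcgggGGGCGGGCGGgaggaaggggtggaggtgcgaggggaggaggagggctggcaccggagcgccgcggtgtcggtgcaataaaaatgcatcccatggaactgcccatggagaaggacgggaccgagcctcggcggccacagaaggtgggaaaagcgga
Sema7a: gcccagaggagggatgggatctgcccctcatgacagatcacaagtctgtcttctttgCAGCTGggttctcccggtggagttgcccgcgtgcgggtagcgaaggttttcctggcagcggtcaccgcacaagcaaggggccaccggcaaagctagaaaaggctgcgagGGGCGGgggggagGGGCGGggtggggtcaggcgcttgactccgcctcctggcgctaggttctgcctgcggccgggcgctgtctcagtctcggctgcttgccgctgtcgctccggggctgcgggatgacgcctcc

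Sema3c held 3 GC boxes and Ntn4 held 4, of which 2 overlapped, while Sema7a held 2 GC boxes and 1 E-box. The Sema3d window held neither, and its GC content of 49.7% compares with 75.7% for Sema3c, 72.0% for Ntn4 and 67.3% for Sema7a. In all, 35.7% of 32851 RefSeq windows of this length held a GC box and 16.3% held the E-box. Of the 75 windows of 59 guidance genes with an entry, 72.0% held a GC box and 12 windows the E-box, and their median GC content was 64.3% against 52.7% for all windows. The TATA box TATAAA and the AP-1 site TGACTCA were also searched on both strands and had no match in the 4 windows. Of all windows 13.6% and 5.20% held them, and of the 75 guidance gene windows 2.67% held each. A match is a run of letters, not a bound site.

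**Figure D1:**
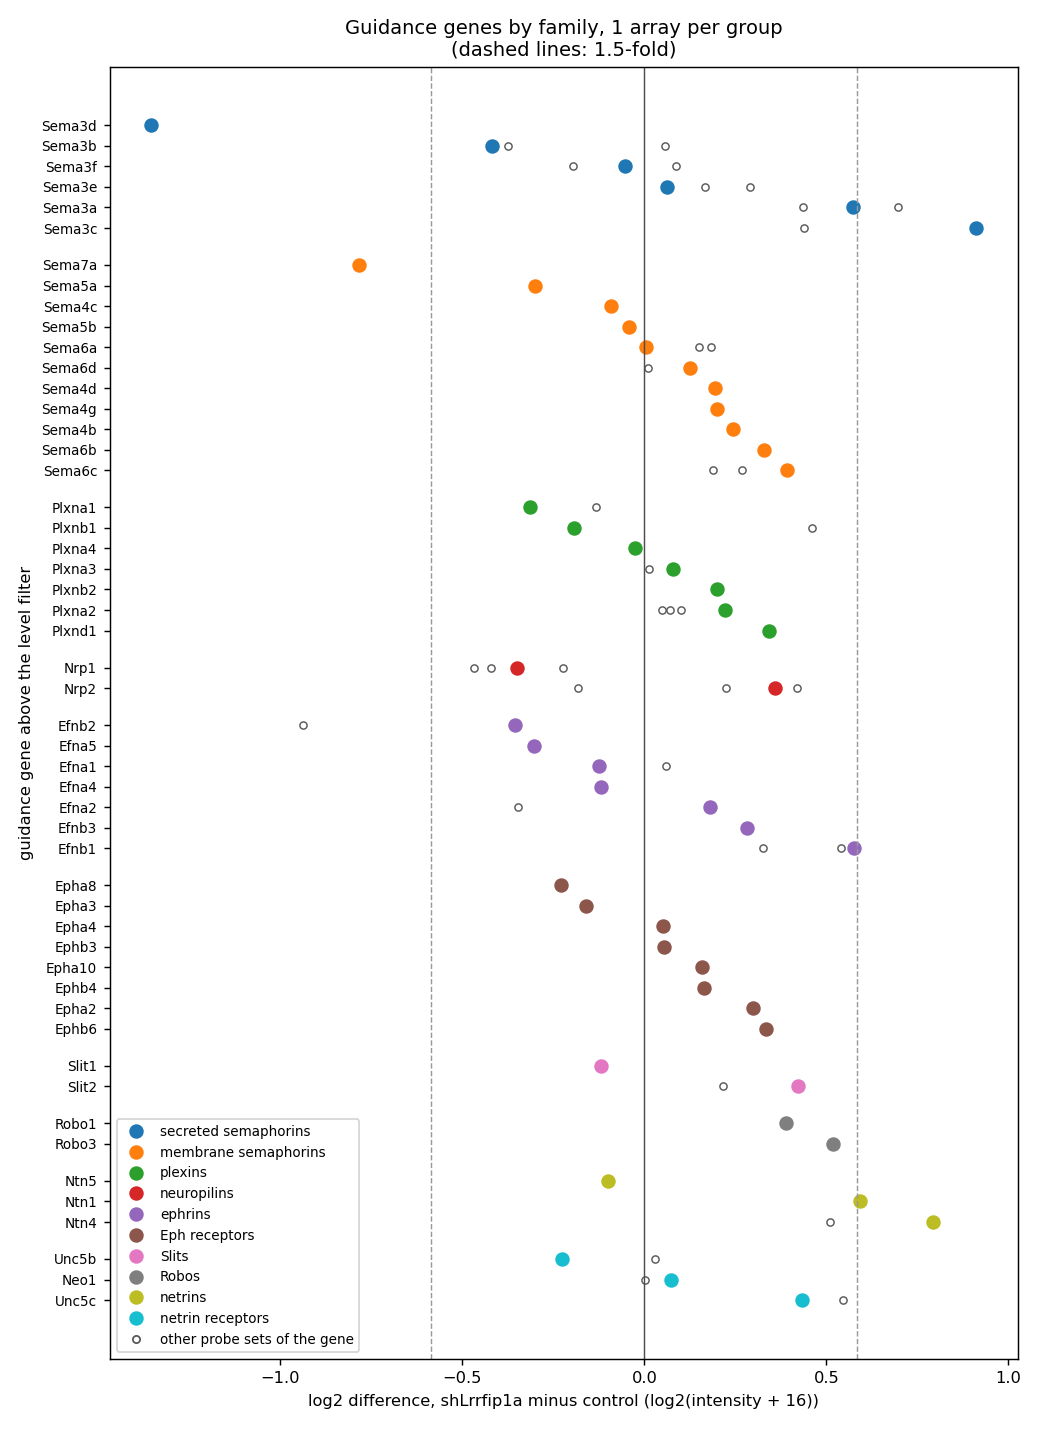
Log2 difference (x axis, shLrrfip1a minus control) of the 51 guidance genes above the level filter, by family; filled points are the probe set that represents the gene, open points its other probe sets above the filter, and dashed lines mark 1.5-fold. Sema3d at -1.35 and Sema3c at 0.91 are the ends of the range, and both belong to the secreted semaphorins.

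Over the 51 genes the median difference was 0.08, against 0.00 over all genes, and the middle 50% of members lay between -0.12 and 0.33, against -0.15 and 0.16. In all, 31 were higher and 20 lower (60.8% and 39.2%, against backgrounds of 50.7% and 49.3%). Scaling the arrays to the bacterial and phage spike-in controls moved every gene up by 0.15, which made it 39 higher and 12 lower (76.5%, against 74.9% of all genes). The 8 genes that changed side, namely Efna1, Efna4, Slit1, Ntn5, Sema4c, Sema3f, Sema5b and Plxna4, all lay within 0.15 below 0. Differences under 1.2-fold were found for 52.9% of the members and 72.7% of all genes. Members lay more in the dim part of the level range. There were 22, 9, 15 and 5 of them in 4 bands of equal gene number from the dimmest to the brightest. Members past 1.5-fold numbered 1, 0, 4 and 0 in these bands, and the share of all genes was 4.79%, 5.28%, 4.34% and 4.83%.

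**Figure D2:**
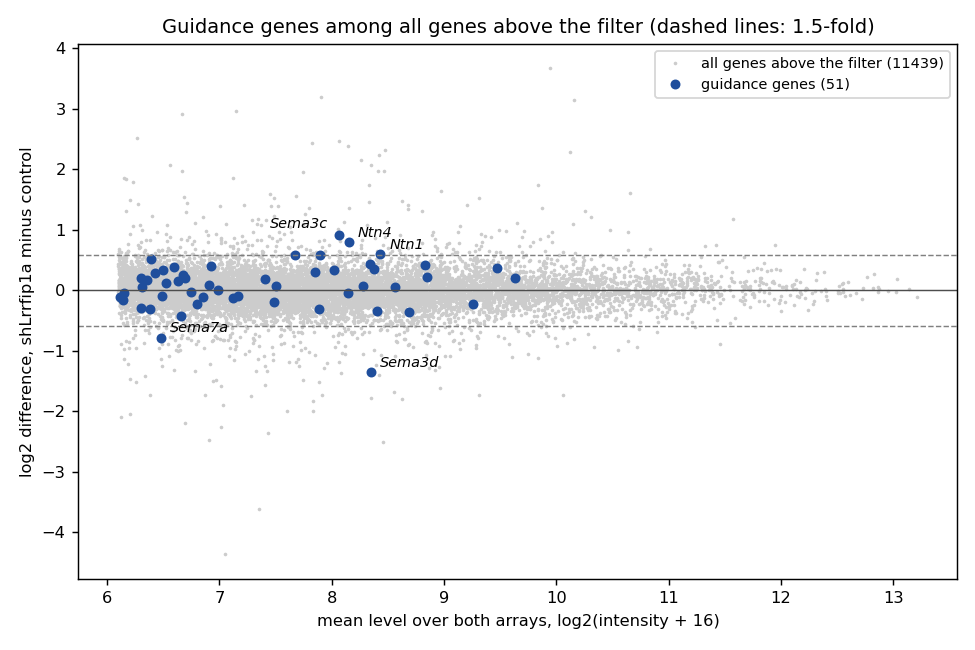
Log2 difference (y axis) against mean level over both arrays (x axis, log2(intensity + 16)) for the 11439 genes above the filter (grey) and the 51 guidance genes (blue); dashed lines mark 1.5-fold. The 5 labelled guidance genes lie outside the dashed lines, Sema3d lowest at -1.35, and the rest lie between the lines. Closest to a line are Efnb1 and Sema3a at 0.57, a size that 2.52% and 2.53% of all genes reached.

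The secreted class 3 semaphorins held the largest differences in each direction. Sema3d, a ligand that acts through neuropilins, read 188 in shLrrfip1a and 506 in the control, a difference of -1.35. Only 0.306% of all genes had a difference as low. Its other probe set lay below the filter and read 38.4 against 57.2. Sema3c, studied most in outflow tract and vessel development, went the other way, at 350.2 against 179 (0.91), a size that 0.848% of all genes reached. A dimmer Sema3c probe set read 91.5 against 63.4 (0.44). Both Sema3d probe sets thus read lower and both Sema3c probe sets higher in shLrrfip1a.

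Sema3a, the founding repellent of the family and a ligand of neuropilin 1, was higher on all 3 of its probe sets. The pairs were 232 against 151 (0.57), 119 against 67.0 (0.70) and 67.7 against 46.0 (0.43). They gave a mean of 0.57 ± 0.13 (SD over 3 probe sets that read the same RNA, so not over replicates). The unadjusted ratio of the brightest probe set was 1.54, and its difference was under 1.5-fold with 16 added but past it with a pseudocount of 1 (0.62), quantile normalization (0.59) or spike-in scaling (0.73). Sema3b, a ligand studied as a candidate tumour suppressor, was lower on 2 probe sets (71.5 against 101, and 63.4 against 87.0) and level on the other (59.4 against 56.5). Sema3e, which binds plexin D1 without a neuropilin, read 169.9 against 162 (0.06), and Sema3f, a neuropilin 2 ligand, 262 against 272 (-0.05). Sema3g was below the filter at 46.9 and 42.6. The class as a whole was therefore split, 3 of its 6 measured genes higher and 3 lower, with a median of 0.00.

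Several of these ligands are neighbours on the same chromosome. By the order of protein-coding genes in RefSeq on chromosome 5, Sema3d is followed directly by Sema3a, then, after 3 genes, by Sema3e, and further along by Cacna2d1, Hgf and Sema3c. The differences along this stretch were -1.35 for Sema3d, 0.57 for Sema3a, 0.06 for Sema3e, 0.03 for the calcium channel subunit gene Cacna2d1, 0.21 for the growth factor gene Hgf and 0.91 for Sema3c. The neighbours Sema3d and Sema3a thus stood on opposite sides of 0. Speer3, between Sema3a and Sema3e, read 85.3 against 87.2 (-0.03), and Speer4f1, just before Sema3c, 75.7 against 63.3 (0.21). Pclo, between Sema3e and Cacna2d1, was dim (32.6 against 28.5), and the other genes along the stretch have no value here.

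Membrane-bound semaphorins differed less. Sema7a, a lipid-anchored semaphorin that binds integrin beta 1 and plexin C1, was the single one past 1.5-fold, at 52.0 against 101 (-0.78). That probe set lay below the array median in shLrrfip1a and above it in the control, and with a pseudocount of 64 the difference was -0.51. A second Sema7a probe set was dim (19.1 and 24.9), and Plxnc1, its plexin, was below the filter (56.3 and 44.0). Sema6c read higher on all 3 probe sets (123 against 90.0, 101 against 86.5, and 65.1 against 51.3). Sema6a was near 0 on its brightest probe set (111 against 110.3) with 0.15 and 0.18 on the others. The remaining members lay between -0.30 for Sema5a and 0.33 for Sema6b, and included Sema4c (123 against 132), a semaphorin studied in myoblast differentiation, and Sema4d (68.3 against 57.7), the ligand of plexin B1. In all, 7 of 11 were higher and 4 lower, with a median of 0.13.

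On the receiving side, the neuropilins stood apart from each other. Nrp1, the co-receptor of Sema3a, was lower on all 4 probe sets, at 284 against 367, 256 against 361, 217 against 296 and 64.1 against 77.4. Its mean difference was -0.37 ± 0.11 (SD over 4 probe sets, again of 1 RNA sample). Nrp2, the co-receptor of Sema3f and Sema3c, was higher on 3 probe sets (790.2 against 612, 624 against 463, and 124 against 103) and lower on the fourth (398 against 454). Its mean was 0.21 ± 0.27 (SD over its 4 probe sets), so the probe sets disagreed by more than the mean. Neither neuropilin reached 1.5-fold on any probe set.

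Plexins were nearly level, with 4 of 7 higher, 3 lower and a median of 0.08. Plxnd1, the receptor of Sema3e, was the highest at 358 against 278 (0.34), and Plxna1, which pairs with Nrp1, the lowest at 197 against 248 (-0.31) with -0.13 on its other probe set. Plxna2 was higher on all 4 probe sets but by at most 0.22 (481 against 410.2 on the brightest). Plxnb2, a receptor of class 4 semaphorins, read 833 against 724 (0.20). Plxnb1 gave opposite answers, -0.19 on its brighter probe set and 0.46 on the other. Plxna3 (0.08) and Plxna4 (-0.03) were level. The symbol Plxna4os1, which the family pattern also matches, is an antisense RNA and read 13.0 against 11.8, below the filter.

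**Figure D3:**
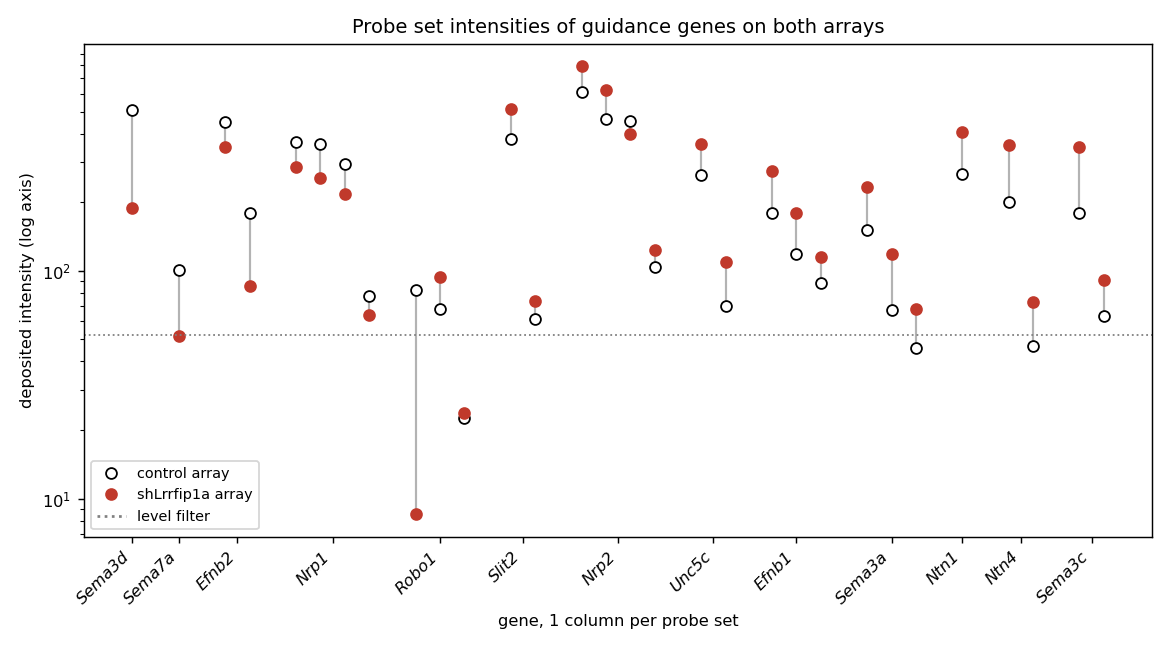
Deposited intensity (y axis, log scale) of the probe sets of 13 guidance genes on the control array (open) and the shLrrfip1a array (red), 1 column per probe set, joined by a line; the dotted line is the level filter, and of the probe sets whose mean is under it only those of Robo1 are drawn. Sema3d, Sema7a, Efnb2 and Nrp1 read lower in shLrrfip1a on every probe set drawn, Sema3a, Sema3c, Ntn1, Ntn4, Efnb1, Unc5c and Slit2 higher, while the Nrp2 and Robo1 probe sets differ in direction.

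Ephrin B genes went in different directions. Efnb1, a transmembrane ligand of EphB receptors, was higher on all 3 probe sets, at 275 against 179 (0.57), 180.1 against 119 (0.54) and 115 against 88.7 (0.33). Efnb2, the ligand of EphB4 best known from arteries, was lower on both probe sets above the filter, at 349 against 450.2 (-0.35) and 86.2 against 179.7 (-0.94). These 2 probe sets disagreed in size. The mean over them was -0.65, which would place Efnb2 past 1.5-fold, where the brighter one alone did not. Efnb3 read 78.7 against 61.9 (0.28).

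The ephrin A genes, which encode lipid-anchored ligands of EphA receptors, stayed under 1.5-fold on each probe set above the filter. Efna5 was the lowest at 59.1 against 76.7 (-0.30), Efna1 read 117 against 129 (-0.12) and Efna4 50.3 against 56.0 (-0.12). Efna2 read 164 against 143 (0.18) on its brightest probe set and 47.9 against 65.3 (-0.35) on the other, so its direction was not settled. Of 7 ephrins above the filter 3 were higher and 4 lower, with a median of -0.12 that became 0.03 with spike-in scaling.

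Eph receptors showed no difference of 1.5-fold. Ephb6, whose kinase domain is inactive, was the highest at 276 against 216 (0.33), followed by Epha2, an epithelial and tumour-associated receptor, at 239.8 against 192 (0.30). Ephb4, the receptor of ephrin B2, read 70.7 against 61.4 (0.16), and Ephb3 read 369.8 against 356 (0.05). Epha4, a receptor for both ephrin classes, was level (64.7 against 61.9), and its 4 other probe sets were dim. Epha8 (-0.23) and Epha3 (-0.16) were the 2 lower members. Of 13 Eph genes only 8 were above the filter, with 6 higher, 2 lower and a median of 0.11.

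For the Slit and Robo pair, the ligand Slit2 was higher on both probe sets above the filter, at 512 against 378 (0.42) and 73.8 against 61.3 (0.22), and on another below it (52.2 against 33.5). Slit1 read 94.8 against 104 (-0.12), and Slit3 was below the filter (31.3 and 23.0). The Slit receptor Robo1 gave conflicting readings. Its brightest probe set read 94.4 against 68.3 (0.39) and a dim one 23.8 against 22.5. A further Robo1 probe set read 8.54 in shLrrfip1a and 82.1 in the control, a difference of -2.00, which was the largest among all 157 member probe sets. Its mean lay below the filter, so it entered no count, and it was singled out after its value was seen. With pseudocounts of 1 and 64 this difference was -3.12 and -1.01. On the control array the conflicting probe set was brighter than the one that stands for Robo1 (82.1 against 68.3). Robo1 entered the counts as higher through the latter, a choice that rested on the shLrrfip1a array. Which part of the Robo1 transcript each probe set reads was not analysed here, so the direction of Robo1 is uncertain. Robo3, a divergent member of the family, read 84.4 against 54.1 (0.52) on 1 probe set and 19.5 against 24.7 on a dim one, and the first became 0.33 with a pseudocount of 64, 0.63 with a pseudocount of 1 and 0.67 with spike-in scaling, the last 2 past 1.5-fold.

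Of 3 netrins above the filter, 2 were higher. Ntn4, a netrin with laminin-like domains that is built into basement membranes, read 359 against 200.1 (0.79), and its second probe set 73.2 against 46.7 (0.51). A difference as high was found for 1.21% of all genes. Ntn1, the classical netrin, read 408 against 265 (0.59) on 1 probe set, which places it just past 1.5-fold, and 20.4 against 20.0 on a dim one. With median centring or a pseudocount of 64 Ntn1 fell short of 1.5-fold, at 0.55 and 0.52. Ntn5 read 70.7 against 77.0 (-0.10), and Ntn3 was dim on both arrays (9.32 and 13.8).

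Among the netrin receptors, Unc5c, a repulsive netrin receptor, was higher on both probe sets, at 359.8 against 262 (0.43) and 109.9 against 70.2 (0.55). Unc5b, known from vessels and as a dependence receptor, read 549 against 645 (-0.23) and 210.2 against 206 (0.03). Neo1 encodes neogenin, which binds netrins and repulsive guidance molecules and has been tied to myotube formation, and it was level at 302 against 286 (0.07) and 127 against 127 (0.00). Dcc read at most 28.8 on any probe set, and Unc5a (30.9 and 38.8) and Unc5d (9.31 and 5.29) were also below the filter. The netrin group of ligands and receptors had 4 of 6 genes higher, 2 of them past 1.5-fold, and a median of 0.25.

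The probe sets of a gene served as the only repeated reading in these data, though they read the same RNA. Of 23 guidance genes with 2 or more probe sets above the filter, 16 had all of them on the same side of 0. This was 69.6%, against a background of 60.3% of 4847 genes. Of the 16 genes, 13 were higher and 3 lower, where over all genes 1448 were higher and 1474 lower. Some of the 13 had a probe set near 0, such as Neo1 (0.001), Sema6a (0.005), Sema6d (0.010) and Plxna3 (0.013). Such genes depend on the scaling, and with median centring this Sema6a probe set read -0.04. The counts of agreeing probe sets were not repeated under the processing alternatives. With 3 or more probe sets, 7 of 10 genes had all of them on the same side (70.0%, against 47.0% of 1984 genes). The 7 were Sema3a, Sema3e, Sema6a, Sema6c, Plxna2 and Efnb1, all higher, and Nrp1, which was lower. The exceptions were Sema3b, Sema3f and Nrp2. A further 28 genes, Sema3d, Sema7a and Ntn1 among them, rested on 1 probe set above the filter.

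**Figure D4:**
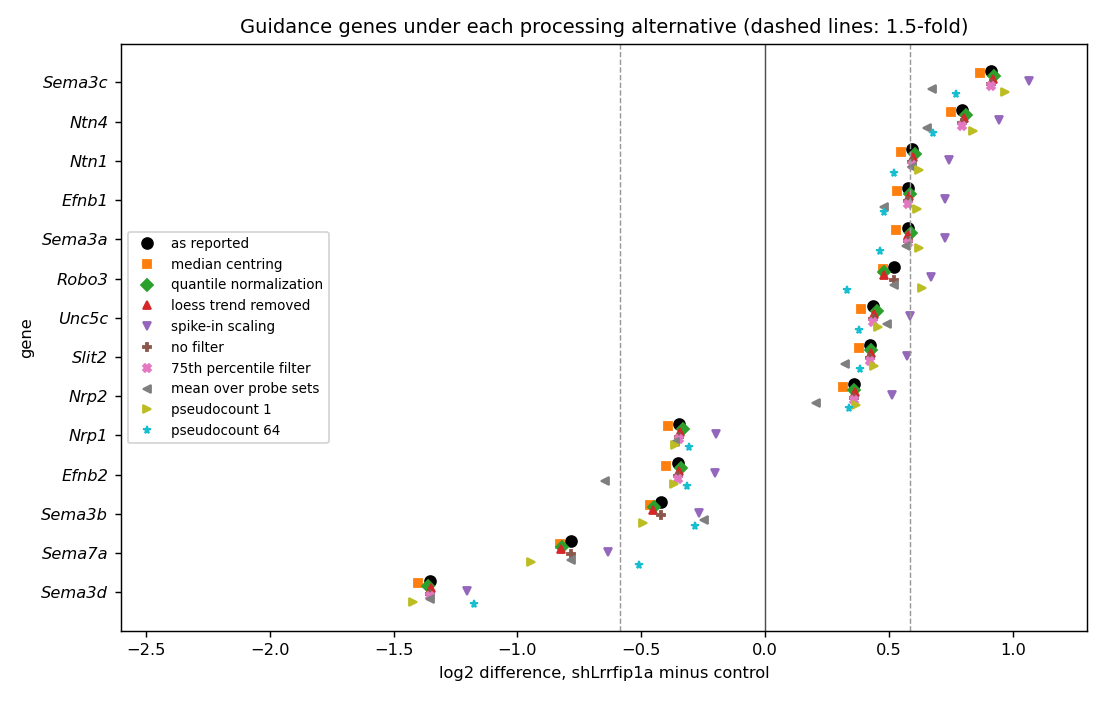
Log2 difference (x axis, shLrrfip1a minus control) of 14 guidance genes (y axis) as reported (black) and under 9 processing alternatives (coloured), with dashed lines at 1.5-fold; a setting that leaves a gene below its filter has no point. No gene drawn crosses 0, Sema3d stays between -1.42 and -1.18, and Ntn1, Efnb1, Sema3a, Robo3, Efnb2 and Sema7a have points on both sides of 1.5-fold.

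Other genes of these pathways were taken from a list of co-receptors, further ligands and cytoplasmic transducers. Of 58 above the filter, 1 was at least 1.5-fold higher (background 2.34%) and 1 lower (background 2.47%), so 1.72% in each direction, near the share over all genes. The median was -0.02. Kdr, a VEGF receptor that partners neuropilins, was the higher one at 118 against 48.0 (1.07, on its single probe set). The control value lay below the array median, so Kdr passed the filter only through the shLrrfip1a array, and with pseudocounts of 1 and 64 the difference was 1.29 and 0.70. Kdr is also an endothelial marker, and the other 5 endothelial markers (Pecam1, Cdh5, Tek, Tie1 and Emcn) read 5.31 to 33.6 on either array with differences of 0.02 to 0.22. Met, the HGF receptor that plexin B proteins can engage, was the lower one at 196 against 335 (-0.73), with a dim second probe set at 28.2 against 21.0.

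The next largest were Flrt2, Ablim1 and Rras. Flrt2, which encodes a membrane ligand of Unc5 receptors, was lower on all 3 probe sets, at 281 against 421 (-0.56), 237 against 407 (-0.74) and 130.5 against 219.7 (-0.69). Ablim1, an actin-binding protein placed in netrin signalling, was higher on 3 probe sets above the filter, at 996 against 674 (0.55), 442 against 275 (0.65) and 74.7 against 54.3 (0.37). Rras, a small GTPase that plexins switch off, read 408 against 567 (-0.46). The middle 50% of the 58 genes lay between -0.16 and 0.11, against -0.15 and 0.16 for all genes.

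A group of 19 guidance genes lay below the filter and was not counted above. These were Epha1, Epha5, Epha6, Epha7, Ephb1, Efna3, Sema3g, Sema4a, Sema4f, Plxnb3, Plxnc1, Plxna4os1, Slit3, Robo2, Robo4, Ntn3, Dcc, Unc5a and Unc5d. Only Ephb1 (62.2 against 39.8) and Plxnc1 (56.3 against 44.0) exceeded the array median on 1 array. A dim Sema4f probe set read 12.8 against 33.4 (-0.78), but the brighter one read 37.2 against 42.4. The deposited values carry no detection calls, so none of these genes can be declared absent. Fibroblast markers, which were above the filter for 5 of 6 genes, included the widest differences of any marker list, with Dcn at 3497 against 260.4 and Dpt at 48.4 against 197. Besides Dcn and Dpt, those above the filter were Pdgfra (-0.35), Col3a1 (0.05) and Thy1 (0.11). The summed intensity of the 6 fibroblast markers was 11469 in shLrrfip1a and 8177 in the control, and most of this gap came from Dcn. The median difference of those above the filter was 0.05, and none was at 0. Both groups were C2C12 cells, and no share of fibroblasts was measured. The part of the fibroblast markers in the guidance gene differences was not tested. Fewer cells of a type and less RNA per cell cannot be told apart in such bulk samples.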

How the data were processed

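Total RNA of 2 groups was labelled with biotin and hybridised to Affymetrix mouse arrays, 1 array per group, from 6 ug of RNA per the labels' protocols. The authors deposited an intensity for each probe set on each array (linear scale). How these were summarised, corrected for background and scaled is not given in the sources used here, and no detection calls came with them. Genes were named through the platform annotation from probe sets with a single symbol (34945 of 45101), and all 70 member symbols matched the gene table of GRCm38.p6. Promoter windows come from RefSeq on that assembly, and a probe's position was not analysed here.

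Values were taken as log2(intensity + 16) with numpy 2.4.6, pandas 2.3.3 and statsmodels 0.14.6 under Python 3.11.15. A gene was called by size alone, at 1.5-fold or 2-fold. Genes past 1.5-fold are given in full, and other members were named as examples with their values seen. The members, lists and tests were chosen with earlier results of these data known. The scripts were tested on simulated data. The alternatives were median, quantile, loess (span 0.3) and spike-in scaling (45 control probe sets, median difference -0.15), no filter or the 75th percentile, the mean over probe sets above the filter, pseudocounts of 1 and 64, and a 3-fold size. The number of arrays limits the precision.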

Additional observations from a re-analysis of the deposited data

How the results depend on the processing

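No library could be left out with 1 array per group. No paired analysis was possible because there is a single sample on each side. The count of guidance genes at least 1.5-fold higher was 3 as reported and 6 with spike-in scaling or a pseudocount of 1, and the count lower was 2 as reported and 1 with the 75th percentile filter or a pseudocount of 64. At 2-fold, 0 were higher as reported and 1 with spike-in scaling, and 1 was lower, against 0 at 3-fold. The median of the guidance genes (0.08) was 0.21 with the 75th percentile filter (24 genes), 0.11 with the mean over probe sets, 0.035 with median centring and 0.23 with spike-in scaling, which moved the median of all genes to 0.16. The partner genes at least 1.5-fold higher were 1 as reported, 0 with the 75th percentile filter and 2 with spike-in scaling, and those lower were 1 as reported, 2 with the mean over probe sets or median centring, and 0 with spike-in scaling. Sema3d, Sema3c and Ntn4 kept their direction and stayed past 1.5-fold under all 9 alternatives, Ntn1 under 7 of 9 and Sema7a under 7 of the 8 that could give a value. Dim probe sets such as those of Sema7a, Robo1 and Kdr depend most on the pseudocount, and the cause of the other changes was not tested.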
